A study of Mus musculus with 183 samples.

Results

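The mRNAs of 10 enzymes of amino acid synthesis and mitochondrial one-carbon metabolism were followed in mouse embryonic stem cells: Psat1, Phgdh, Psph, Shmt2, Mthfd2, Aldh18a1, Pycr1, Asns, Gpt2 and Pck2. They are a named list of 10 genes among the 53380 genes of the count table, and all 10 were counted in every library. The list was chosen by measured values, since the mock levels, the decay and the binding of these mRNAs were in view when it was drawn up, so the values of these 10 genes are given as a description, without p-values, and a call on one of them only says on which side of the threshold it fell.

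The study asked how decay pathways for cytoplasmic mRNA divide their targets, and it measured mRNA decay after transcription was stopped with actinomycin D, a compound that binds DNA and blocks RNA polymerase. Clone 5F (Rosa26 Cre-ERT2/-, Skiv2l fl/fl) carries floxed Skiv2l, the gene of the helicase of the SKI complex. In clone 7E (Rosa26 Cre-ERT2/BirA-V6, Aven-/-) the labels give a 3xFLAG-Avi tag on both Skiv2l alleles, and the floxed allele is named in the study's methods, whose cell line table has BirA-V5 for this background. Both clones express Cre-ERT2 from Rosa26 and were sampled at day 0 and after 4 days of 4-hydroxytamoxifen (4OHT, 0.1 µM), which switches Cre-ERT2 on. Each clone and day has mock libraries (vehicle alone, labelled 0 min) and libraries taken 120, 240 and 360 min after the compound was added. Per the study's methods the mock cells were kept for 360 min in fresh medium with vehicle, so they were not taken at 0 min. Mock stands at 0 min in the fits below. A group holds 3 libraries, except that of clone 5F at 120 min of day 0, which holds 2. Each genotype is 1 clone and the study calls its replicates technical, so clone and genotype cannot be told apart, and errors cover the spread between these libraries alone.

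Total gene counts lay between 24440935 and 34114250 in the 47 libraries. Skiv2l, which 4OHT should truncate, was at 144 ± 1.26 counts per 1000000 after scaling by size factors (normalized CPM, SD, n = 3) in mock libraries of clone 5F at day 0 and at 143 ± 10.2 in those labelled day 4, so the whole-gene count does not show the change that the label of clone 5F names. The deletion removes part of the exons, and whether it took place in these libraries cannot be read from that count, so they are called "labelled day 4" throughout. The study tested recombination after 4OHT by RT-qPCR or western blot. It also reports that mRNAs highly bound by SKIV2L were stabilized upon the knockout in its half-life measurements. In clone 7E, Skiv2l was at 33.5 ± 2.33 at day 0 and 13.4 ± 0.659 at day 4, and Aven at 2.31 ± 0.572 against 34.7 ± 0.237 in clone 5F at day 0. All 9 embryonic stem cell markers had a mean over 1 CPM in every mock group, and their sum was 3828 to 3834 in clone 5F at day 0 and 3110 to 3181 in clone 7E at day 4. Over the same groups 3 neural markers summed to 84.2 to 86.6 and 162 to 173. Between these groups the mean of Nes went from 57.0 to 126, that of Pax6 from 25.0 to 39.6 and that of Sox1 from 3.20 to 3.38. Within clone 7E, Pax6 and Sox1 were lower at day 4 than at day 0. The 4 fibroblast markers summed to between 2.27 and 9.27 in all mock libraries. None of these markers was at 0. The 6 primitive endoderm markers summed to 98.1 to 131 in clone 5F and 13.0 to 14.0 in clone 7E, and the part of these markers in the results below was not tested. In 6 libraries, none of them mock, mitochondrial genes held 0.710% to 0.806% of counts, against 1.09% to 3.99% in the other 41. In each clone and day, replicate 1 was lowest at 120 min, replicate 2 at 240 min and replicate 3 at 360 min. Where these libraries were not among the 6, they held 1.09% to 1.25%, so leaving out the 6 removes only part of this pattern. The ratio of gene counts to the added ERCC spike-in RNA was 348 ± 14.5 and 341 ± 15.3 at day 0 and labelled day 4 of clone 5F, and 319 ± 5.59 and 153 ± 2.35 at day 0 and day 4 of clone 7E (mock, n = 3 each). Less total RNA per cell and fewer cells cannot be told apart in such a ratio, so mock levels below are relative to the other genes of the library. In actinomycin D, the library lowest in mitochondrial share was also the lowest of its group in this ratio.

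Cells make serine from a glycolytic intermediate through PHGDH, PSAT1 and PSPH, in that order. In mitochondria SHMT2 splits serine into glycine and a one-carbon unit carried by folate, which MTHFD2 oxidises further. ALDH18A1 opens and PYCR1 closes the route from glutamate to proline, ASNS makes asparagine from aspartate, GPT2 makes alanine and 2-oxoglutarate from pyruvate and glutamate, and PCK2 is the mitochondrial phosphoenolpyruvate carboxykinase. Many of these genes are textbook targets of ATF4, a transcription factor whose translation increases when eIF2 is phosphorylated under amino acid shortage or stress of the endoplasmic reticulum.

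On GRCm38 (Gencode M21) the genes are spread over 8 chromosomes, with pairs on chromosomes 6 and 19. Psat1 is at chr19:15904678-15947337, Phgdh at chr3:98313170-98339990, Psph at chr5:129765558-129787449, Shmt2 at chr10:127517123-127522444, Mthfd2 at chr6:83305691-83325908, Aldh18a1 at chr19:40550257-40588463, Pycr1 at chr11:120635712-120643769 and Asns at chr6:7675169-7693254, all on the minus strand. Gpt2 at chr8:85492576-85527560 and Pck2 at chr14:55540266-55551242 are on the plus strand. Their union of exons is 2486 (Phgdh) to 7806 bases (Pck2). An exon of Psph overlaps one of Cct6a on the other strand, and one of Shmt2 overlaps Ndufa4l2. The libraries do not keep the strand, so reads in those stretches cannot be assigned, and Psph counts are uncertain because Cct6a is abundant.

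ATF4 acts at composite sites with C/EBP proteins, and the core TGATGNAA was searched on both strands in the 250 bases before and 50 after each start site of the RefSeq promoter table (GRCm38.p6). All 10 genes were in the table, with 11 entries. A match was in 3 of the 10, Asns, Pycr1 and Pck2, and in 3.97% of all 32851 promoters. These windows are shown because they are the sites at which the 3 promoters share letters, with the motif in capitals. They read 5′ to 3′ along the strand of the gene.
Asns (chr6:7693214-7693243, minus strand): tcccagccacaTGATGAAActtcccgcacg
Pycr1 (chr11:120643833-120643862, minus strand): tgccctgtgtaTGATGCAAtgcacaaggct
Pck2 (chr14:55540152-55540181, plus strand, motif on the opposite strand): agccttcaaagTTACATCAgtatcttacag
The motif began 23 bases before the start site in Asns and 103 bases before it in Pycr1 and Pck2. The 3 genes with a match did not share 1 pattern in the libraries, as the values below show. The other 7 genes hold no such letters in this window, which says nothing of sites elsewhere.

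In mock libraries the 10 mRNAs were present at very different levels. Levels below are in normalized CPM. Per kilobase of exon, in clone 5F at day 0, Psat1 (89.4), Asns (79.4) and Shmt2 (42.3) led, Mthfd2 (19.1), Phgdh (16.6), Aldh18a1 (15.3), Psph (11.5) and Gpt2 (7.86) followed, and Pck2 (3.65) and Pycr1 (2.43) were lowest. At day 4 of clone 7E, Psat1 (147) and Asns (122) again stood highest and Pycr1 (2.12) lowest, while Mthfd2 stood at 46.1. Without the scaling by length, Psat1 alone held 36.9% of the summed level of the 10 genes in clone 5F at day 0 and 36.6% at day 4 of clone 7E. That sum was 1031 ± 4.06 (SD, n = 3) in clone 5F at day 0, 1100 ± 36.5 in its libraries labelled day 4, 1292 ± 21.4 in clone 7E at day 0 and 1712 ± 10.3 in clone 7E at day 4.

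**Figure D1:**
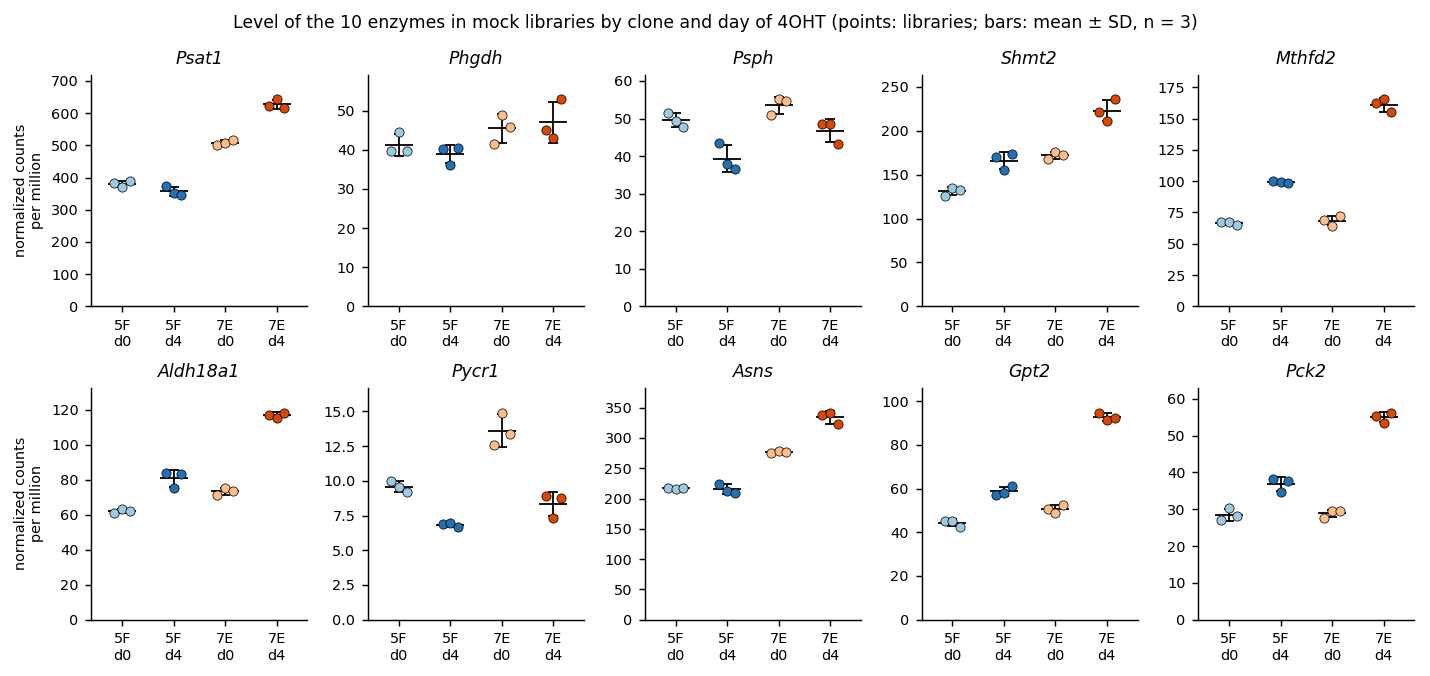
Level of each enzyme mRNA in the 12 mock libraries, in normalized CPM from 0, by clone (5F, 7E) and labelled day of 4OHT (d0, d4). Points are libraries and bars are mean ± SD (n = 3). Mthfd2, Aldh18a1, Gpt2 and Pck2 stand highest at day 4 of clone 7E, Phgdh changes little, and Pycr1 is lower at day 4 in both clones. Levels are relative to the other genes, and scaled by spike-ins the day 4 levels of clone 7E other than that of Mthfd2 lie below day 0.

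In clone 7E, 4 days of 4OHT went with more Mthfd2, Pck2, Gpt2 and Aldh18a1 mRNA and less Pycr1 mRNA relative to other genes. Mthfd2 was at 68.7, 64.5 and 72.0 normalized CPM in the 3 mock libraries at day 0 and at 163, 165 and 155 at day 4. The groups are far apart, and the log2 change was 1.23 (SE 0.05), or 2.35-fold. Pck2 was at 27.6, 29.4 and 29.5 at day 0 and at 55.4, 53.4 and 56.2 at day 4, with a log2 change of 0.93 (SE 0.06). Gpt2 was at 50.5, 48.8 and 52.7 at day 0 and at 94.7, 91.2 and 92.4 at day 4, with a log2 change of 0.87 (SE 0.05). Aldh18a1 was at 71.2, 75.1 and 73.7 at day 0 and at 117, 115 and 118 at day 4, with a log2 change of 0.67 (SE 0.05). In none of these 4 genes did the groups overlap, but the share of all genes without overlap is not given here.

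Smaller increases were seen in clone 7E for the mitochondrial serine hydroxymethyltransferase Shmt2 (log2 change 0.37, SE 0.05), the aminotransferase Psat1 (0.30, SE 0.04) and asparagine synthetase Asns (0.27, SE 0.04). Psat1 was at 502, 506 and 518 at day 0 and at 623, 643 and 616 at day 4, and Asns at 275, 278 and 277 against 338, 342 and 322. The enzymes on either side of PSAT1 did not follow it. Phgdh was at 41.5, 49 and 45.9 at day 0 and at 45.1, 43.0 and 52.9 at day 4, and these groups overlap (log2 change 0.05, SE 0.07). Psph, whose counts are uncertain, was at 50.9, 55.1 and 54.6 at day 0 and at 48.6, 48.5 and 43.3 at day 4 (-0.19, SE 0.06). Pycr1, the last enzyme of proline synthesis, was at 12.6, 14.9 and 13.3 at day 0 and at 8.90, 7.31 and 8.78 at day 4, a log2 change of -0.71 (SE 0.10) that is opposite in sign to that of Aldh18a1, the enzyme that opens the same route.

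Of the 10 genes, 7 were called higher and 2 lower in clone 7E at day 4 (edgeR's quasi-likelihood test over 16333 genes, Benjamini-Hochberg threshold 0.05), beside 20.8% and 19.3% of all genes called higher and lower. The median log2 change was 0.34 for the 10 genes and -0.01 for all genes. With spike-in scaling of each library on its own, the median of all genes moved to -1.11 and that of the 10 to -0.76, so that 1 of the 10 (Mthfd2) was called higher and 9 lower. The directions given for clone 7E are therefore directions relative to the median gene.

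The libraries of clone 5F labelled day 4, in which the whole-gene count of Skiv2l had not fallen, differed from day 0 for the same 4 genes by less. Mthfd2 was at 67.4, 67.5 and 65.1 normalized CPM at day 0 and at 101, 98.9 and 98.1 in libraries labelled day 4, with no overlap (log2 change 0.57, SE 0.05). Gpt2 was at 45.2, 45.4 and 42.4 at day 0 and at 57.0, 58.1 and 61.0 labelled day 4 (0.40, SE 0.05). Aldh18a1 was at 61.1, 63.3 and 62.0 against 83.9, 75.3 and 83.5 (0.38, SE 0.05), and Pck2 at 27.1, 30.4 and 28.0 against 38.3, 34.7 and 37.6 (0.37, SE 0.06). Shmt2 was at 126, 135 and 133 against 170, 155 and 173 (0.33, SE 0.05). None of these groups overlapped, again without the share of all genes for which this holds.

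Psat1 (-0.09, SE 0.04), Phgdh (-0.09, SE 0.06) and Asns (-0.01, SE 0.04) were not called in clone 5F. Pycr1 was at 9.99, 9.53 and 9.19 at day 0 and at 6.89, 6.95 and 6.67 in libraries labelled day 4 (-0.49, SE 0.09). Psph was at 51.5, 49.3 and 47.9 against 43.4, 38.0 and 36.6 (-0.34, SE 0.06). In all, 5 of the 10 were called higher and 2 lower, beside 12.6% and 11.9% of all 16349 genes. The median log2 change was 0.16 for the 10 and -0.01 for all genes, and with each library's own spike-ins it was 0.09 and -0.07, with the same numbers of the 10 called.

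**Figure D2:**
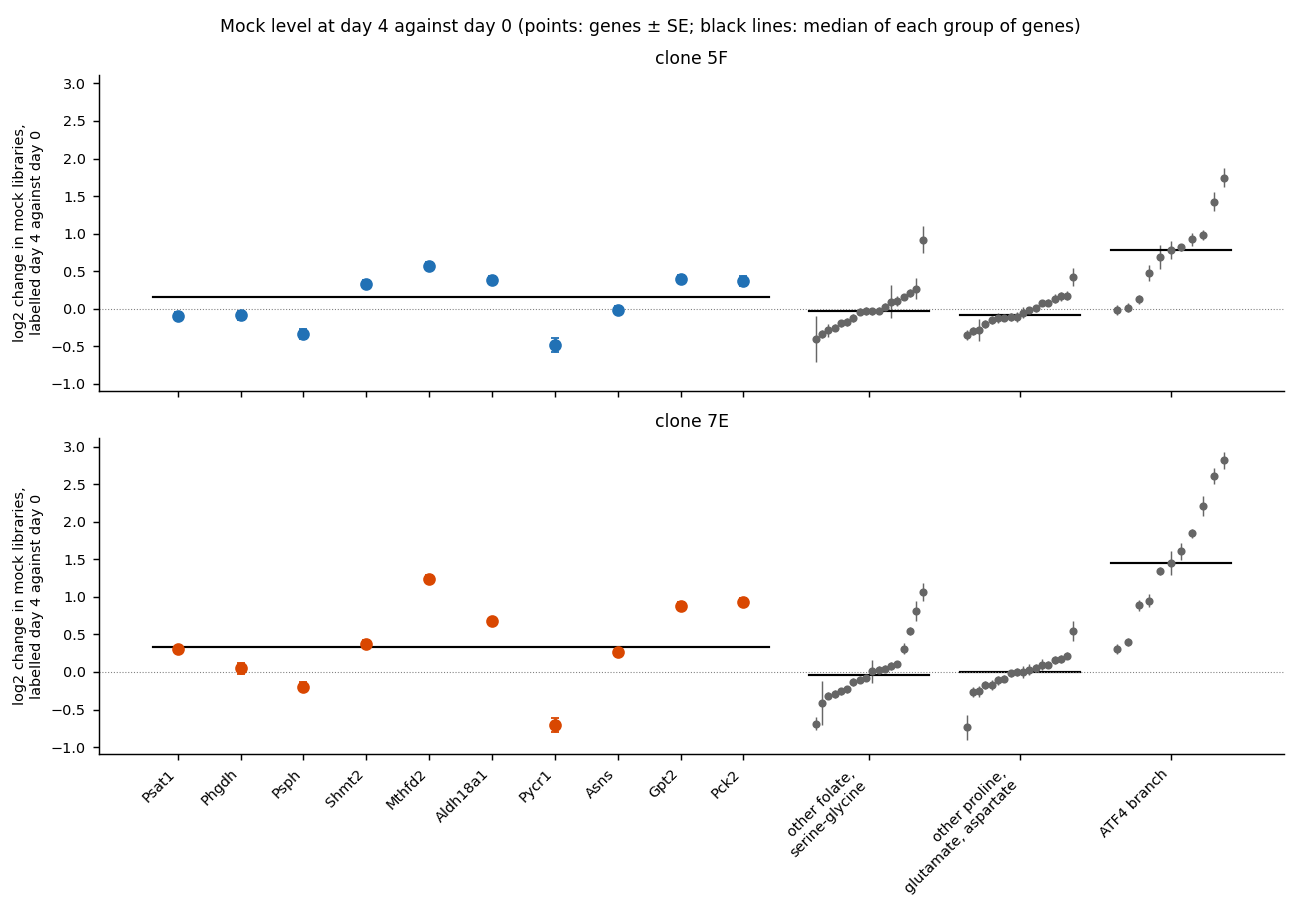
Log2 change of mock levels between libraries labelled day 4 and day 0, for clone 5F (top) and clone 7E (bottom). Points are genes ± SE, with the 10 enzymes named on the left and the genes of 3 other lists on the right, and black lines are the median of each group of genes. In clone 7E Mthfd2 (1.23) and Pycr1 (-0.71) mark the ends of the 10 enzymes and the ATF4 branch has a median of 1.45. Changes are relative to the other genes, since with spike-in scaling the median of all genes in clone 7E lies at -1.11.

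At day 0, before any 4OHT, clone 7E had less Skiv2l mRNA than clone 5F (log2 difference -2.10, SE 0.06, adjusted p = 3.84e-18) as well as less Aven mRNA. The clones differed at this day for 6 of the 10 genes, all higher in clone 7E, beside 18.1% of all 17209 genes called higher and 18.1% called lower. The log2 differences of clone 7E from clone 5F were 0.51 for Pycr1 (SE 0.09), 0.42 for Psat1 (SE 0.04), 0.39 for Shmt2 (SE 0.05), 0.35 for Asns (SE 0.04), 0.24 for Aldh18a1 (SE 0.05) and 0.19 for Gpt2 (SE 0.05). Phgdh (0.14, SE 0.07), Psph (0.11, SE 0.06), Mthfd2 (0.04, SE 0.05) and Pck2 (0.02, SE 0.06) were not called. Mthfd2 and Pck2, the genes that changed most with 4OHT in clone 7E, were thus among those for which no difference between the clones was called at day 0. With each library's own spike-ins the median of all genes was -0.17, and 4 of the 10 were called higher.

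The response to 4OHT was larger in clone 7E than in clone 5F for 6 of the 10 genes, in the interaction of clone and day over the 12 mock libraries. Beside this, 6.65% of all genes had a called difference upward and 5.29% downward. The log2 response of clone 7E exceeded that of clone 5F by 0.66 for Mthfd2 (SE 0.07), 0.56 for Pck2 (SE 0.08), 0.47 for Gpt2 (SE 0.07), 0.39 for Psat1 (SE 0.06), 0.29 for Aldh18a1 (SE 0.07) and 0.28 for Asns (SE 0.06). Shmt2 (0.04, SE 0.07), Phgdh (0.14, SE 0.11), Psph (0.14, SE 0.09) and Pycr1 (-0.22, SE 0.13) were not called. With each library's own spike-ins, where the median of all genes was -1.03, all 10 values were negative, so these differences too hold relative to the median gene.

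The ATF4 branch was followed through 11 genes that are not biosynthetic enzymes. This list and the other lists below were drawn up with earlier results of these data known. Their counts and adjusted p-values are therefore no independent test. In clone 7E all 11 were called higher at day 4 relative to the median gene, with a median log2 change of 1.45, while with each library's own spike-ins 6 were called higher and 3 lower. In clone 5F 8 of the 11 were called higher in the libraries labelled day 4 and none lower, with a median of 0.78, and the same numbers were called with each library's own spike-ins. Atf4 itself rose from 165 ± 3.67 to 421 ± 29.9 normalized CPM in clone 7E (n = 3 each, log2 change 1.35, SE 0.05, adjusted p = 7.6e-16) and from 125 ± 1.28 to 220 ± 3.80 in clone 5F (0.82, SE 0.04, adjusted p = 1.58e-11). Ddit3, the gene of the stress factor CHOP, rose by a log2 change of 2.21 in clone 7E (SE 0.13, adjusted p = 3.32e-12) and 1.43 in clone 5F (SE 0.13, adjusted p = 4.89e-08). Trib3, a pseudokinase gene induced by ATF4, rose by 1.85 (SE 0.06, adjusted p = 2.18e-16) and 0.98 (SE 0.07, adjusted p = 8.1e-10). Chac1, which encodes an enzyme that breaks down glutathione, rose by 2.82 in clone 7E (SE 0.11, adjusted p = 9.02e-16) and 1.74 in clone 5F (SE 0.12, adjusted p = 1.77e-09). Atf3, a stress-induced factor, rose by 2.61 in clone 7E (SE 0.10, adjusted p = 1.81e-15). These genes kept their direction in both clones with each library's own spike-ins. In clone 7E the log2 changes were then smaller, at 1.72 for Chac1, 1.51 for Atf3, 1.11 for Ddit3, 0.75 for Trib3 and 0.25 for Atf4. Atf4 was then at 0.75 in clone 5F.

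All 11 genes of this branch had a larger response relative to the median gene in clone 7E than in clone 5F in the same interaction, although with each library's own spike-ins 1 was called larger and 4 smaller and the median turned to -0.25. The median difference was 0.78 with the main scaling, from 1.69 for Atf3 (SE 0.14, adjusted p = 1.09e-08) through 1.07 for Chac1 (SE 0.18, adjusted p = 0.000195) and 0.87 for Ddit4 (SE 0.10, adjusted p = 1.1e-06) to 0.27 at the low end. At day 0, 6 of the 11 were higher and 1 lower in clone 7E than in clone 5F. Atf4 was higher by 0.41 (SE 0.05, adjusted p = 2.39e-07) and Trib3 by 0.38 (SE 0.07, adjusted p = 7.01e-05). Atf5 (0.79, SE 0.10, adjusted p = 1.25e-06) and Nupr1 (0.50, SE 0.13, adjusted p = 0.00317) were higher and Atf3 was lower (-0.83, SE 0.11, adjusted p = 2.48e-06). With each library's own spike-ins 4 of the 11 were called higher and 2 lower. Ddit3 had 0.06 (SE 0.17, adjusted p = 0.813). These adjusted p-values are from edgeR's quasi-likelihood test over all genes.

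Other genes of the same pathways moved both ways relative to the median gene. For comparison, the share of all genes called higher and lower was 20.8% and 19.3% in clone 7E and 12.6% and 11.9% in clone 5F. Of 18 other folate and serine-glycine genes, 4 were higher and 5 lower in clone 7E at day 4 (median -0.04), and 3 and 5 in clone 5F (median -0.04). In clone 7E, Aldh1l2, the mitochondrial formyltetrahydrofolate dehydrogenase, rose by 1.07 (SE 0.12, adjusted p = 7.44e-08) and Aldh1l1, its cytosolic counterpart, by 0.81 (SE 0.14, adjusted p = 4.88e-05). Cbs, which uses serine in transsulfuration, fell by 0.69 (SE 0.09, adjusted p = 1.04e-06). In clone 5F the glycine cleavage gene Gcsh fell by 0.34 (SE 0.05, adjusted p = 3.13e-05), Cbs by 0.29 (SE 0.08, adjusted p = 0.0169) and Shmt1, the cytosolic counterpart of Shmt2, by 0.25 (SE 0.04, adjusted p = 0.000268). Aldh1l2, named here after its values were seen because its mean count was too low for the rule, rose by 0.92 in clone 5F as well (SE 0.18, adjusted p = 0.000685), and the interaction was not called (0.14, SE 0.21, adjusted p = 0.746).

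Of 18 tested genes of proline, glutamate and aspartate metabolism, 4 were higher and 5 lower in clone 7E (median 0.00) and 2 higher and 5 lower in clone 5F (median -0.08). The asparaginase gene Aspg rose in both, by 0.55 in clone 7E (SE 0.13, adjusted p = 0.00183) and 0.42 in clone 5F (SE 0.12, adjusted p = 0.0105), but with each library's own spike-ins it was not called in clone 5F and turned sign in clone 7E. The branched-chain aminotransferase gene Bcat2 (-0.26, SE 0.07, adjusted p = 0.00263) and Asl of the urea cycle (-0.26, SE 0.07, adjusted p = 0.00544) fell in clone 7E. Aldh4a1 and Oat, whose products act in proline and ornithine breakdown, fell in clone 5F by 0.35 (SE 0.06, adjusted p = 0.000437) and 0.30 (SE 0.05, adjusted p = 0.000357).

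Between the clones at day 0, 3 of the folate and serine-glycine genes were higher and 5 lower in clone 7E, with Aldh1l2 at 1.25 (SE 0.16, adjusted p = 9.42e-07), Cth at -0.84 (SE 0.05, adjusted p = 4.12e-12) and Gldc at -0.67 (SE 0.04, adjusted p = 9.08e-12). Of the proline, glutamate and aspartate genes, 5 were higher and 9 lower, with Oat at -0.62 (SE 0.05, adjusted p = 1.48e-09), Glud1 at -0.45 (SE 0.04, adjusted p = 1.16e-09) and Asrgl1 at 0.45 (SE 0.05, adjusted p = 4e-07). In the interaction, 1 and 2 of the folate and serine-glycine genes, and 1 and 1 of the other list, had a called difference upward and downward. With each library's own spike-ins 0 genes of either list were called higher by edgeR in clone 7E at day 4, where 16 and 18 were called lower, so that Aldh1l2 (-0.03), Aldh1l1 (-0.28) and Aspg (-0.55) turned sign. In the interaction all 18 tested genes of each list were then called downward, Cth and Ass1 among them. In clone 5F 1 folate and serine-glycine gene was then called higher and 6 lower, and 0 and 5 of the other list.

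The 10 enzymes did not share 1 profile over the 12 mock libraries. Their correlation with the mean of the 10 standardized profiles, which contains each gene itself, was 0.96 for Asns, 0.95 for Psat1 and 0.90 for Shmt2, but 0.15 for Psph and 0.10 for Pycr1. Of 10977 other genes with a mean of at least 100 counts, those closest to that mean profile included Gpa33 (Pearson r = 0.99), Mtch1, Zfp64, Fmn2, Man2b1, Crip2, Trim32, Eif4ebp1 and Limk2 (r = 0.98 for each after Gpa33). Eif4ebp1, which encodes a repressor of cap-dependent translation, was at 153, 183, 227 and 348 normalized CPM on average in clone 5F at day 0 and labelled day 4 and clone 7E at day 0 and day 4. The 12 libraries fall into 4 groups that these correlations share.

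After transcription was stopped, these mRNAs were lost slowly at day 0, and 4 of them ended above their mock level. In the values below, size factors bring the libraries of a time point to a common level and a spike-in factor then sets the time point against mock. That factor was 0.649 at 120 min, 0.531 at 240 min and 0.438 at 360 min, and values are percent of the mock mean of the same clone and day. Aldh18a1 in clone 5F at day 0 was at 121% and 124% after 120 min, at 144%, 138% and 122% after 240 min, and at 134%, 134% and 134% after 360 min. In clone 7E at day 0 it was at 127%, 124% and 113%, then at 132%, 140% and 129%, then at 129%, 133% and 140%. Every library in actinomycin D was above the mock libraries in both clones.

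Mthfd2 fell and then came back at day 0. In clone 5F it was at 74.3% and 71.9% after 120 min, at 103% ± 3.57 after 240 min and at 116% ± 1.80 after 360 min (SD, n = 3). In clone 7E it was at 75.8%, 78.5% and 73.9% after 120 min, at 113%, 124% and 116% after 240 min, and at 133%, 131% and 135% after 360 min. All 120 min libraries were below mock and all 360 min libraries above it. Gpt2 had the same course, with 77.5% ± 4.50 after 120 min, 126% ± 4.99 after 240 min and 140% ± 2.48 after 360 min in clone 7E, and 109% ± 4.50 after 360 min in clone 5F (n = 3). Pck2 was at 136% ± 5.37 in clone 7E and at 114% ± 4.54 in clone 5F after 360 min (n = 3).

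In the libraries of day 4 these mRNAs did not rise above mock. In clone 7E at day 4 Mthfd2 was at 71.2%, 71.1% and 71.0% after 120 min, close to its day 0 values at that time, and then went on falling to 53.5%, 54.8% and 55.4% after 240 min and 40.2%, 42.8% and 43.8% after 360 min. Aldh18a1 was at 58.6% ± 2.25 after 360 min (n = 3), Gpt2 at 43.3%, 45.1% and 45.0%, and Pck2 at 43.0%, 47.1% and 43.8%. These day 4 values and those of day 0 after 360 min are far apart in each of the 4 genes. In libraries of clone 5F labelled day 4, Mthfd2 was at 61.7%, 61.0% and 57.3% after 360 min. The values at this time were 77.9% ± 5.11 for Aldh18a1, 60.9% ± 4.10 for Gpt2 and 63.3% ± 9.78 for Pck2 (n = 3), again all below mock.

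**Figure D3:**
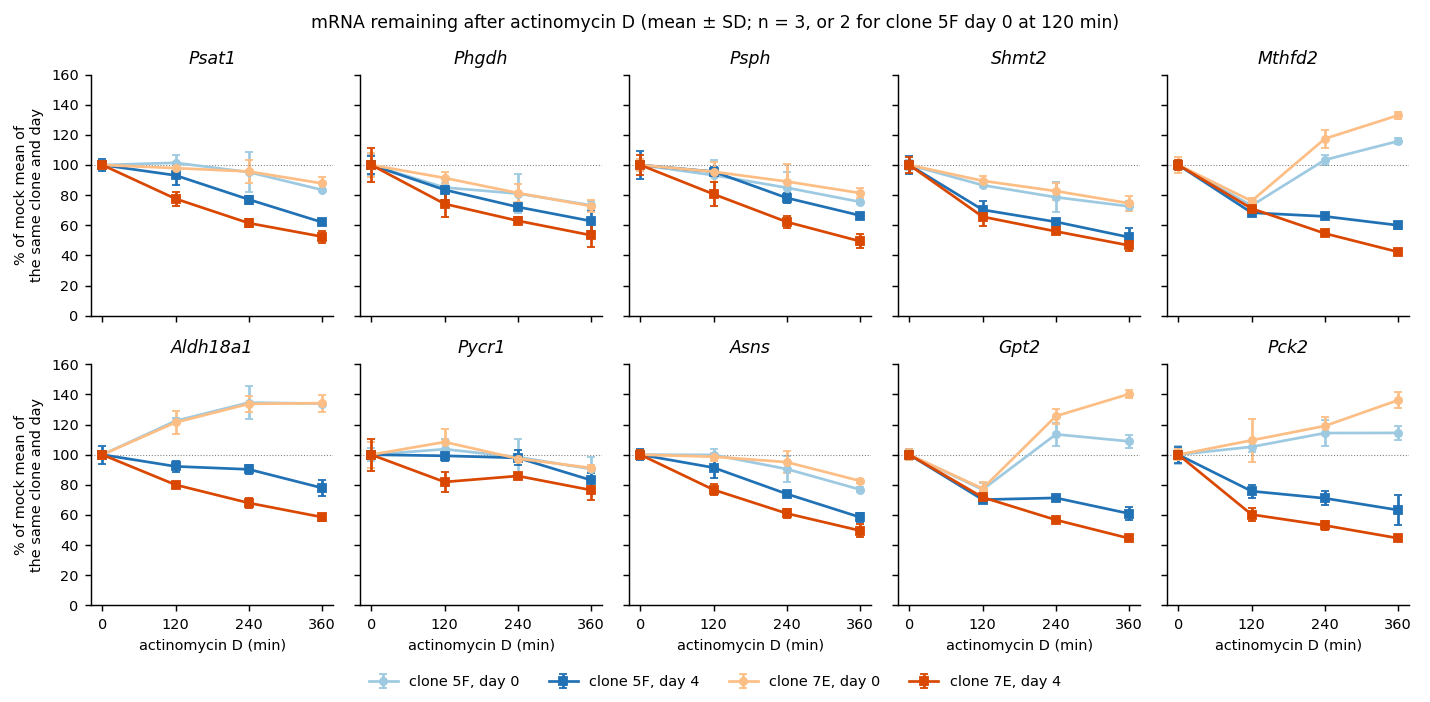
mRNA remaining during actinomycin D for each enzyme, as percent of the mock mean of the same clone and day (y) against minutes (x). Lines join means ± SD (n = 3, or 2 for clone 5F day 0 at 120 min), and the dotted line marks 100%. At day 0 Mthfd2, Aldh18a1, Gpt2 and Pck2 end above 100% in both clones, while all 10 mRNAs end below 100% in libraries labelled day 4.

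Psat1 and Asns, the most abundant of the 10 per kilobase, lost little in 6 h at day 0. Psat1 was at 83.3%, 89.4% and 90.7% after 360 min in clone 7E at day 0 and at 50.3%, 50.0% and 57.1% at day 4. In clone 5F it was at 83.3%, 84.1% and 82.9% at day 0 and at 64.2%, 60.2% and 61.5% labelled day 4. Asns was at 80.9%, 83.5% and 83.4% in clone 7E at day 0 and at 48.1%, 46.4% and 54.3% at day 4. For both genes no day 4 library reached the lowest library of day 0 of the same clone at this time. The share of all genes for which this holds is not given. Shmt2 was at 74.6% ± 4.95 against 46.6% ± 3.48 in clone 7E, Psph at 81.4% ± 3.21 against 49.4% ± 4.70, and Phgdh at 72.7% ± 3.85 against 53.4% ± 7.64 (n = 3 each). Pycr1 changed least, with 91.2% ± 1.74 at day 0 and 76.5% ± 6.29 at day 4 of clone 7E. The mRNA of Atf4 itself was short-lived. It was at 7.76% ± 0.922 after 360 min in clone 5F at day 0 and at 11.6% ± 0.493 in clone 7E at day 0 (n = 3 each).

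A straight line through the logarithm of the values gave, at day 0, a slope above 0 for Mthfd2, Aldh18a1, Gpt2 and Pck2 in both clones, so that no half-life can be given. Their slopes in clone 7E were 0.09 (SE 0.03), 0.07 (SE 0.01), 0.11 (SE 0.03) and 0.07 (SE 0.01) log2 units per hour, but a line describes Mthfd2 and Gpt2 poorly, since both fell before they rose. Of the 10593 genes with a mean of at least 100 counts, 0.368% did not fall in clone 5F at day 0 and 0.170% in clone 7E at day 0. The median of those genes was -0.21 log2 units per hour in every clone and day, a half-life of 287 to 291 min. The scaling brings all libraries of a time point to a common level, so this likeness between clones and days follows from it. The median of the 10 enzymes was -0.03 in both clones at day 0, -0.11 in clone 5F labelled day 4 and -0.17 in clone 7E at day 4.

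For the other 6 genes the half-life at day 0 of clone 7E was 1995 min for Psat1, 1358 min for Asns, 1203 min for Psph, 864 min for Shmt2 and 779 min for Phgdh. With the slope moved by 1 SE either way the Psat1 value runs from 1528 to 2873 min, so half-lives several times longer than the 360 min of the experiment are loosely bounded. That of Pycr1 was 2227 min, with a range of 1489 to 4414 min. Without the 360 min libraries the values were 3609 min for Psat1, 3164 min for Asns and 7037 min for Pycr1, and without replicate 2 Pycr1 had 4943 min. At day 4 of clone 7E the half-lives were 292 min for Mthfd2 (range 283 to 302 min), 312 min for Gpt2, 326 min for Pck2, 340 min for Shmt2, 350 min for Psph, 356 min for Asns, 383 min for Psat1, 406 min for Phgdh and 470 min for Aldh18a1, and 1116 min for Pycr1. In clone 5F, Psat1 had 1394 min at day 0 and 513 min labelled day 4, Asns 951 and 457 min, and Shmt2 776 and 399 min. Mthfd2 had 530 min and Aldh18a1 1081 min in the libraries labelled day 4.

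**Figure D4:**
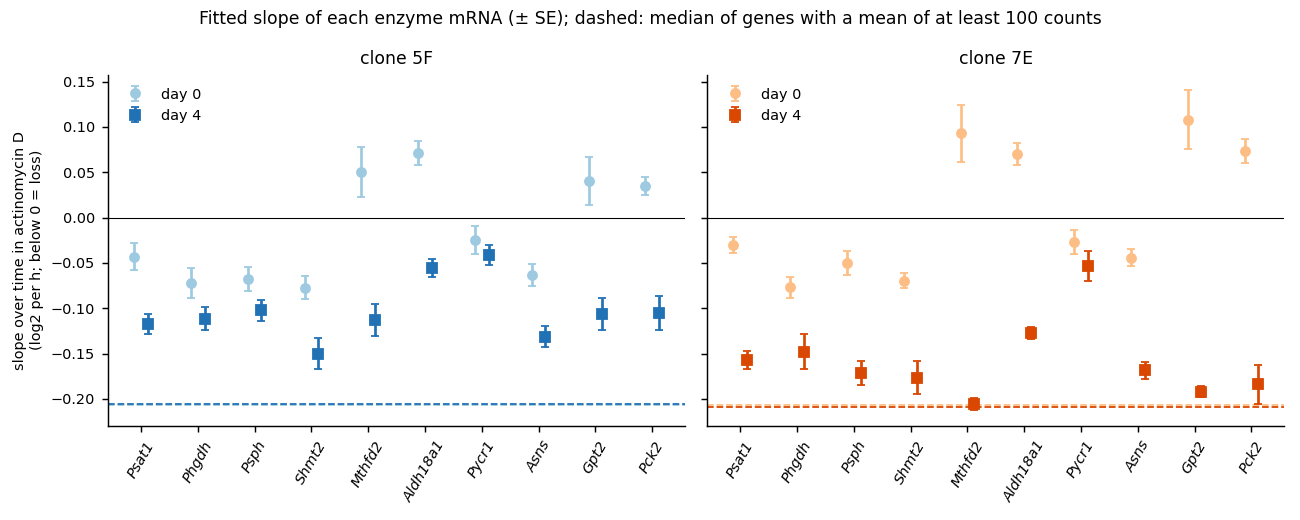
Slope of each enzyme mRNA over time in actinomycin D, in log2 units per hour ± SE, for clone 5F (left) and clone 7E (right), with 11 libraries for clone 5F at day 0 and 12 for each other clone and day. Dashed lines are the median of genes with a mean of at least 100 counts, at -0.21. Mthfd2, Aldh18a1, Gpt2 and Pck2 lie above 0 at day 0 and below it in libraries labelled day 4.

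The difference in slope between day 4 and day 0 was below 0 for all 10 genes in both clones, and such a difference is termed faster below. For Mthfd2, Aldh18a1, Gpt2 and Pck2 it includes the rise at day 0, so it is not a difference between 2 rates of loss. After 120 min in clone 7E, Mthfd2 was at 76.1% at day 0 and 71.1% at day 4, and Gpt2 at 77.5% and 71.8%. In clone 7E 8 of the 10 were called faster and none slower, beside 0.764% of all 17417 genes called faster and 0.522% called slower, so that 8 of the 133 genes called faster were these enzymes. The differences were -0.30 log2 units per hour for Mthfd2 (SE 0.03) and for Gpt2 (SE 0.03), -0.26 for Pck2 (SE 0.02), -0.20 for Aldh18a1 (SE 0.02), -0.13 for Psat1 (SE 0.01), -0.13 for Asns (SE 0.02), -0.12 for Psph (SE 0.02) and -0.11 for Shmt2 (SE 0.02). Phgdh (-0.07, SE 0.02) and Pycr1 (-0.03, SE 0.03) were not called. With each library's own spike-ins 6 of the 10 were called, and without the 6 libraries low in mitochondrial counts 8 were. Libraries of the same pattern that held 1.09% to 1.25% stayed in that fit.

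In clone 5F, 3 of the 10 were called faster in the libraries labelled day 4 and none slower, beside 0.0559% of all 17901 genes called faster and 0.101% called slower. They were Mthfd2 (-0.16, SE 0.03), Pck2 (-0.14, SE 0.02) and Aldh18a1 (-0.13, SE 0.02), all 3 with a slope above 0 at day 0. Gpt2 had -0.14 (SE 0.03), Psat1 -0.07 (SE 0.02), Shmt2 -0.07 (SE 0.02) and Asns -0.07 (SE 0.02). By edgeR 0 of the 10 were called with each library's own spike-ins or with any 1 replicate number left out, 6 were called by DESeq2, and 2 were called without the 6 libraries low in mitochondrial counts. The differences themselves stayed about as large with own spike-ins, with a median over the 10 genes of -0.08 against -0.07. Whether the change in decay differed between the clones was not tested.

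Between the clones at day 0 the slopes of none of the 10 genes were called different by edgeR, beside 0.0322% of all 18623 genes called slower and 0.00537% called faster in clone 7E. At an unadjusted p under 0.05, 1 of the 10 stood out, and DESeq2 called 0. The differences ran from -0.01 to 0.07 log2 units per hour.

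Some other genes of the pathways had a called change of decay, beside the 0.764% of all genes called faster in clone 7E. In that clone, 3 of the 18 folate and serine-glycine genes were called faster at day 4 and none slower: Aldh1l2 (-0.23 log2 units per hour, SE 0.04, adjusted p = 0.000612), Cth (-0.20, SE 0.03, adjusted p = 6.89e-05) and Mthfd1l (-0.08, SE 0.01, adjusted p = 0.000629). Of the proline, glutamate and aspartate genes, Bcat1 was called (-0.09, SE 0.01, adjusted p = 1.84e-05), and of the ATF4 branch Nupr1 (-0.37, SE 0.03, adjusted p = 2.93e-08) and Trib3 (-0.24, SE 0.06, adjusted p = 0.0477). The list medians were -0.01, -0.02 and -0.15. With each library's own spike-ins Mthfd1l, Bcat1 and Trib3 were no longer called, which left 2, 0 and 1 genes of the 3 lists. In clone 5F, Nupr1 was called faster in the libraries labelled day 4 (-0.23, SE 0.03, adjusted p = 0.00228). By edgeR 0 of the other 2 lists' genes were called there, with 4 and 2 at an unadjusted p under 0.05, and between the clones at day 0 none of the 3 lists had a called gene, with 1, 0 and 1 at an unadjusted p under 0.05.

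The CRAC experiment, in which RNA crosslinked to a tagged protein is purified and sequenced, gives for each of 7240 mRNAs the share of binding that went to SKIV2L, to XRN1, the exonuclease that degrades from the 5′ end, and to MTR4, the helicase of the nuclear exosome. The shares of an mRNA add up to 1 and were pooled over libraries by the authors, so they carry no replicate error and their depth is unknown. Binding to AVEN, a protein that was named as an inhibitor of apoptosis, is a further ratio in the same table.

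Most of the 10 enzyme mRNAs had SKIV2L shares above that of the median mRNA. Their median SKIV2L share was 0.487 against 0.267 over all mRNAs, and 9 of the 10 were above the median. Psph had 0.617, at the 96.6th percentile, Shmt2 0.583 (94.8th), Phgdh 0.535 (91.5th), Asns 0.504 (88.6th), Psat1 0.499 (88.1st) and Aldh18a1 0.475 (85.6th). Pck2 (0.347), Mthfd2 (0.314) and Pycr1 (0.297) were nearer the middle, and Gpt2 (0.256) was below the median. The largest share was on XRN1 for Mthfd2 and Gpt2 and on MTR4 for Pycr1. The 6 mRNAs with the largest SKIV2L shares thus hold the whole of the serine route, and they include Aldh18a1 but not Mthfd2, Gpt2 and Pck2, whose slopes at day 0 were likewise above 0.

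The share of MTR4 was low for most of them, with a median of 0.186 against 0.319 over all mRNAs. Asns (0.128), Shmt2 (0.133), Psph (0.138), Aldh18a1 (0.153) and Psat1 (0.156) were all below the 9th percentile. Pck2 (0.343, at the 55.2nd percentile) and Pycr1 were above the median, and Pycr1 had 0.500 of its binding on MTR4, at the 79.6th percentile, and the lowest AVEN ratio of the 10 (0.0556, at the 2.17th percentile). XRN1 shares had a median of 0.327 against 0.337, with Gpt2 (0.471) and Mthfd2 (0.469) highest and Phgdh (0.192) and Pycr1 (0.203) lowest. The authors also normalized the shares to the RPKM of the tagged lines, as a check for small differences in transcript levels between lines. Some values stayed as they were, such as that of SKIV2L for Psat1 (0.499), so this is not binding per unit of expression. After it the XRN1 value of Mthfd2 was 0.744, at the 99.1st percentile, and that of Gpt2 was 0.499. The median of the 10 was then 0.293 against 0.339. AVEN ratios had a median of 0.258 against 0.295, with Asns highest (0.420) and Gpt2 (0.136) and Pck2 (0.129) near Pycr1 at the low end. In the authors' RPKM, Asns (158) and Psat1 (131) were the most abundant of the 10 mRNAs in the tagged lines and Pycr1 (5.77) the least.

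**Figure D5:**
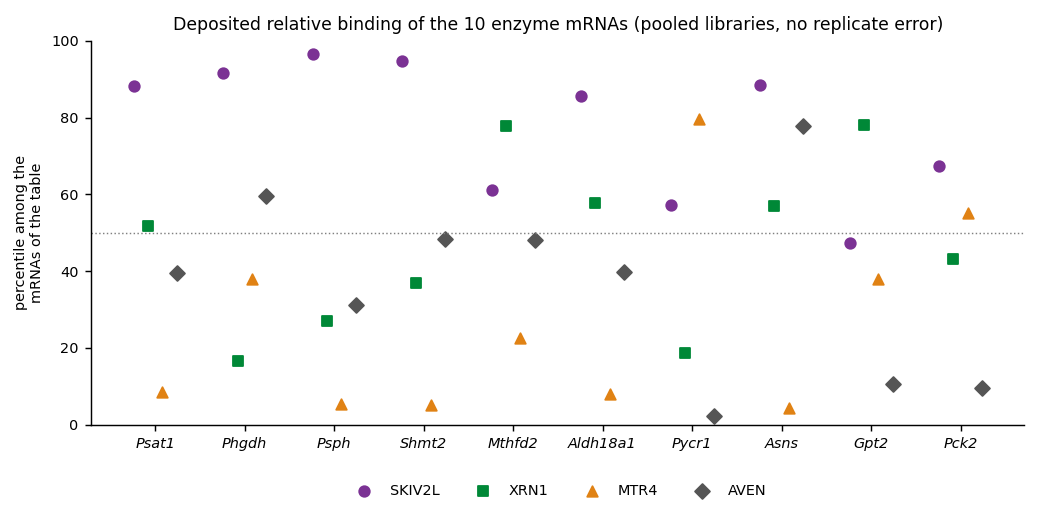
Percentile of each enzyme mRNA among the 7240 mRNAs of the table for relative binding to SKIV2L, XRN1, MTR4 and AVEN, from pooled libraries with no replicate error. The dotted line marks the median. SKIV2L shares lie above the 85th percentile for 6 of the 10 mRNAs, and Pycr1 stands highest for MTR4.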

How the data were processed

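RNA decay was measured in 47 libraries of 2 mouse embryonic stem cell clones. Total RNA without rRNA was sequenced by a method that loses the strand, and the authors aligned the reads with STAR (mm10, per the submitters' processing notes) and deposited raw counts per gene. Replicate 2 of clone 5F at day 0 and 120 min is not analysed here. The authors pooled CRAC libraries per protein and deposited relative binding as a fraction (SKIV2L, XRN1 and MTR4) and as a ratio (AVEN). Further values hold the fractions after normalization to the RPKM of the tagged lines. They also deposited the RPKM of these mRNAs in the tagged lines. Deposited half-lives, log2 fold changes and adjusted p-values are the authors' own comparisons and were not used. No per-sample column was left out (0).

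Symbols came from Gencode M21 (53274 of 53380 genes), a later release of the same build. The list genes Pycr3 and Pc were found under other symbols. Mock levels were scaled by DESeq2 size factors over the mock libraries. Time courses used size factors computed separately per time point. They were then brought to mock by multiplying with a common spike-in factor of the time point, from 34 ERCC sequences with a mean above 50 counts, whereas the study writes of a division. Tests were edgeR's quasi-likelihood test (edgeR 4.0.16, R 4.3.3) on genes kept by filterByExpr, with Benjamini-Hochberg adjustment over all genes and a threshold of 0.05. Changes in decay were tested as hours by day. Half-lives came from a line through ln(normalized count + 1). The alternatives were other scalings (own spike-ins, TMM), DESeq2 1.42.0, other filters, a replicate block, and libraries or time points left out. Fits were tested on simulated data. Genes named from the other lists were up to 3 per list and comparison, those with the largest change among the called genes whose mean reached 100 counts, plus Atf4, Ddit3 and Trib3 in mock libraries. The 10 most similar genes were ranked by correlation over the 12 mock libraries. Some genes that these rules would name are not reported here. The 10 genes, the lists and the rules were chosen with earlier results of these data known.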

Additional observations from a re-analysis of the deposited data

Results flagged for a closer look

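The response of mock levels to 4OHT differed between the clones in the interaction of clone and day (edgeR's quasi-likelihood test over 17209 genes, 12 libraries) for 6 of the 10 enzymes, with log2 differences of clone 7E from clone 5F of 0.66 for Mthfd2, 0.56 for Pck2, 0.47 for Gpt2, 0.39 for Psat1, 0.29 for Aldh18a1 and 0.28 for Asns. For the enzymes this is a description, since they were chosen with these data in view.

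Of the genes named from the ATF4 branch, Atf3 (1.69), Chac1 (1.07), Ddit4 (0.87), Trib3 (0.86), Ddit3 (0.78) and Atf4 (0.53) differed in the same direction. Of the other lists, Cth (0.34) and Ass1 (0.27) had a higher response in clone 7E, and Cbs (-0.41) and Gldc (-0.22) a lower one.

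All of these differences are relative to the median gene of the libraries, and with each library's own spike-ins those given as positive turned below 0, except Atf3 (0.66) and Chac1 (0.04). The ratio of gene counts to spike-ins was lower at day 4 of clone 7E (153 against 319 at day 0), and its part in these differences was not tested. The whole-gene count of Skiv2l had not fallen in the libraries of clone 5F labelled day 4, which does not show whether its exons were deleted.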

How the results depend on the processing

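Of 740 recomputed changes of single enzymes, 696 moved by less than a margin set from the SE of the main fit. With each library's own spike-ins the median of all genes was -1.11 for clone 7E at day 4 and -1.03 for the interaction. There, and under no other alternative, 12 called values turned sign. In clone 7E these were Psat1 (-0.80), Shmt2 (-0.72), Aldh18a1 (-0.43), Asns (-0.83), Gpt2 (-0.23) and Pck2 (-0.17). In the interaction they were Psat1 (-0.64), Mthfd2 (-0.37), Aldh18a1 (-0.74), Asns (-0.75), Gpt2 (-0.56) and Pck2 (-0.47), and 10 of the 10 were called instead of 6. All genes called then numbered 14976 instead of 6552 in clone 7E, and 14373 instead of 2055 in the interaction.

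For decay in clone 5F, 3 enzymes and 28 of all genes were called. There were 0 enzymes with own spike-ins, 6 and 44 with DESeq2, 1 without the 360 min libraries, and 1 and 14 without the mock libraries. For decay in clone 7E, 8 enzymes and 224 genes were called, and the gene count was 105 with own spike-ins, 376 with DESeq2, 134 without a filter and 94 without 360 min. Between the clones at day 0, 7 genes became 4 with own spike-ins, 12 with TMM, 29 with DESeq2, 2 without 360 min, 60 without mock and 29 without the 6 libraries low in mitochondrial counts, an alternative chosen after seeing the data. The cause was not tested. Slopes stayed below 0 in 32 of the 40 combinations of enzyme, clone and day under each alternative. These include the mean depth of each time point, also added after seeing the data. Of the recomputed slopes, 30 moved by more than the margin set for them. The median SKIV2L percentile was 86.8, and 87.3 with the values that the authors normalized to the RPKM of the tagged lines.

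With 1 replicate number left out, all genes called ranged from 1881 to 4424 (4015 with all) for clone 5F mock levels, 4285 to 5952 (6552) for clone 7E, 4094 to 5323 (6231) between clones and 752 to 1446 in the interaction. For decay the range was 2 to 3 in clone 5F, with 0 to 0 enzymes, 28 to 63 in clone 7E, with 6 to 7 enzymes, and 0 to 1 between clones. Deviations of same-numbered mock libraries had correlations of -0.40 to -0.08 in clone 5F and -0.37 to -0.05 in clone 7E. Over the mock libraries of both clones they ran from -0.49 to 0.50, with 6 of 18 pairs over 0.1. Over all times they reached 0.60 in clone 5F and 0.63 in clone 7E, with 29 of 77 and 31 of 84 pairs over 0.1. The mitochondrial share in actinomycin D also followed the replicate number, so a link between same-numbered libraries is not excluded. With a replicate block the calls of enzymes were 7, 9, 6 and 6 for mock levels, as without it, and 2, 8 and 0 for decay, and all genes called were 2972, 6014, 6044 and 1930, and 25, 154 and 7.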
